A study of Mus musculus with 6 samples.

Results

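The 10 genes described here lie around Cav1 on mouse chromosome 6, and their transcripts were measured in hearts that lack Cav1 and in wild-type hearts. In the order of protein-coding genes along the chromosome they are Ppp1r3a, Foxp2, Mdfic, Tfec and Tes before Cav1 and Met, Capza2, St7, Wnt2 and Cttnbp2 after it, with Cav2 between Tes and Cav1. The genes were listed by name, and every probe set was kept that the platform annotation gives to exactly 1 symbol, that symbol being 1 of the 10. That made 19 probe sets of the 45101 on the array. The list was chosen by position near Cav1 and from the knockout minus wild type differences of these arrays, in which Tes, Met and Mdfic were known to be past the threshold, so the differences of the 10 genes are given as a description and with no p-value. The 3 knockout samples and the 3 wild-type samples are heart tissue of male mice aged 5 to 6 months, fasted for 6 hours, with 1 array each. The knockout titles read Cav1KO and the wild-type titles WT, and the labels used here give neither a strain nor the deleted stretch nor whether each sample is a separate animal, so every standard error and p-value here covers only sample-to-sample spread, which may be partly technical. Because the strain is not given, the loss of Cav1 and any donor sequence carried beside it on chromosome 6 cannot be told apart as far as these genes are concerned.

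Caveolin-1 is the coat protein of caveolae, small pits of the plasma membrane that are abundant in endothelial cells and fat cells. A gene is usually knocked out in embryonic stem cells of one mouse strain, and breeding to another strain replaces distant sequence sooner than sequence close to the deleted gene, so the closest neighbours are the ones most likely to keep the donor's alleles. The neighbours of Cav1 have no shared function. They include a growth factor receptor (Met), a secreted ligand (Wnt2), proteins of focal adhesions and actin (Tes, Capza2, Cttnbp2), regulators of transcription (Mdfic, Tfec, Foxp2), a glycogen-targeting subunit of protein phosphatase 1 (Ppp1r3a) and St7, named for suppression of tumorigenicity.

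Promoter sequence is shown for the 3 genes with a probe set past the threshold and for Capza2, the gene next to Met, whose probe sets did not pass. Each run holds the 250 bases before the gene's start on its own strand, from RefSeq on GRCm38.p6, in which 9 of the 10 genes had an entry. Capitals mark a match, on either strand, to the GC box (letters GGGCGG), the CCAAT box (the letters of its name), the TATA box (letters TATAAA) or the E-box (letters CACGTG), and neighbouring matches may overlap.
Tes, chr6:17064899-17065148, plus strand: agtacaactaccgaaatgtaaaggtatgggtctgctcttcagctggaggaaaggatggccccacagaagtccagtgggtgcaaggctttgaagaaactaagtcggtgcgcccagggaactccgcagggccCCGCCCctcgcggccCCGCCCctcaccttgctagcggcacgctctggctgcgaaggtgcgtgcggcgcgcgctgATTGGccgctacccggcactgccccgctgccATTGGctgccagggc
Met, chr6:17463707-17463956, plus strand: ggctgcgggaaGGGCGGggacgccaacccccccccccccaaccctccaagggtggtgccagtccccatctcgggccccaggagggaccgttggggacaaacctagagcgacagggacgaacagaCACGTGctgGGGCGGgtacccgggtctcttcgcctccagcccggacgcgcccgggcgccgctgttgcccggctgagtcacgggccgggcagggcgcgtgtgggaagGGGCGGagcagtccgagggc
Mdfic, chr6:15720411-15720660, plus strand: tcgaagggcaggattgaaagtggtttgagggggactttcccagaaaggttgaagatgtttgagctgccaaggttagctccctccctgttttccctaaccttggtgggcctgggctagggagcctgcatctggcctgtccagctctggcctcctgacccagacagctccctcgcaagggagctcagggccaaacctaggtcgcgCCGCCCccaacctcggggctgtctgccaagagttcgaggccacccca
Capza2, chr6:17636760-17637009, plus strand: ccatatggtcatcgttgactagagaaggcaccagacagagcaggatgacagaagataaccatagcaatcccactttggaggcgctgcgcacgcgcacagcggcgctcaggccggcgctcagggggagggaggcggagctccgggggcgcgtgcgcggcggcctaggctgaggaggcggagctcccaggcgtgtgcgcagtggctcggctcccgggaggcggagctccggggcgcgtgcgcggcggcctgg
The Tes run held 2 GC boxes, 2 CCAAT boxes and 19 CpG dinucleotides at a GC content of 64.8%. The Met run held 3 GC boxes, 1 E-box and 24 CpG at 74.0% GC. The Mdfic run held 1 GC box and 7 CpG at 60.8% GC. The Capza2 run held none of the 4 motifs and 28 CpG at 70.4% GC. Over all 32851 promoter runs of the same length, 32.7% held a GC box, 33.8% a CCAAT box, 12.4% a TATA box and 6.02% an E-box, and the median was 6 CpG and 52.4% GC. Of the 4 motifs only the GC box was present in the runs of Tes, Met and Mdfic alike. It was not particular to them, since 32.7% of all runs held one. The runs of Wnt2 and Cttnbp2, whose probe sets were too low to be tested, held 1 and 2 GC boxes. Those of Capza2, Ppp1r3a and St7, which were tested and did not pass, held none, nor did that of Tfec, which was not tested. Nothing is read from so few genes. A match describes letters and not a binding site.

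Wild-type array 1 was lowest in overall signal, and the other arrays were alike. The mean intensity without the top and bottom 2% of probe sets was 155 on wild-type array 1 and 163 to 168 on the others. The Spearman correlation of wild-type array 1 with the knockout arrays was 0.989 to 0.992. For the other wild-type arrays it was 0.993 to 0.996. The summed intensity ran from 12263579 to 12397257 on the knockout arrays and from 11736722 to 12329456 on the wild-type arrays. Log2 differences are knockout minus wild type of log2(intensity + 16) after quantile normalisation, a scale that understates the change of low probe sets, while the intensities printed for single hearts are the deposited ones. A probe set was tested if its mean lay in the upper 50% of the array, which left 22519, and passed if limma's Benjamini-Hochberg adjusted p was under 0.05. Of the 19 probe sets 9 were tested, for 7 genes, and Tfec, Wnt2 and Cttnbp2 had none above this level filter. Cav1 itself, in a single probe set, had an intensity of 120, 104 and 101 in the knockout hearts, against 3745, 3869 and 4259 in the wild-type hearts. Its neighbour Cav2, which encodes the partner of caveolin-1, had 1971, 1852 and 1751 in the knockout hearts and 1255, 1317 and 1296 in the wild-type hearts (log2 difference 0.49, SE 0.047, limma adjusted p = 0.00146).

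Tes, Met and Mdfic were higher in the knockout hearts, at 4 probe sets of the 9 tested. Over the whole array 3.17% of the tested probe sets passed in either direction and 2.36% passed as higher, and nothing is read from the comparison with the 4 of 9, because these genes were listed with their differences known. Of all calls on the array 74.4% were higher after quantile normalisation, 90.9% with intensities as deposited and 93.5% with arrays centred on their medians. None of the 9 was past the threshold as lower, against 0.813% over the array. All 3 knockout hearts lay above all 3 wild-type hearts at 9 of the 19 probe sets, against 9.87% of the 45037 probe sets that are not controls, and at none did they lie below all wild-type hearts, against 8.34%. After normalisation they lay above at 8 of the 19, against 10% of all. Among the tested probe sets of the array the share above, in deposited intensity, was 16.4%. Nothing is read from these counts either, for the same reason as with the 4 of 9. In bulk tissue, a change in the number of cells of a type and a change in RNA per cell cannot be told apart.

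**Figure D1:**
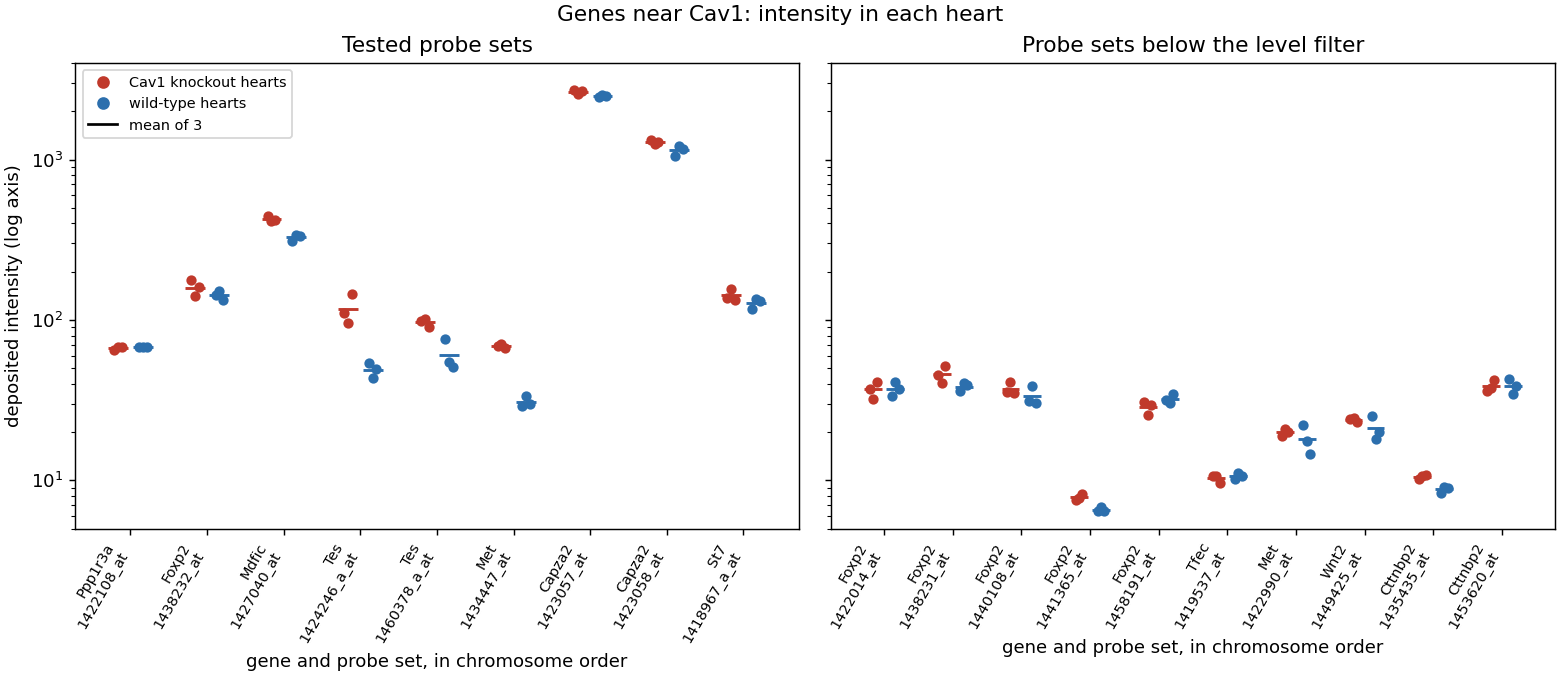
Deposited intensity on a log axis for each of the 19 probe sets, with a point for each of the 3 knockout hearts (red, left) and the 3 wild-type hearts (blue, right) and a line at the mean of 3. The groups are apart at both Tes probe sets, at 1 of the 2 of Met and at Mdfic, and they lie close together or overlap at most of the others.

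Tes encodes testin, a LIM domain protein of focal adhesions and of sites where actin filaments are anchored. Its first probe set had an intensity of 111, 95.1 and 145 in the knockout hearts, against 53.7, 43.7 and 49.6 in the wild-type hearts. The lowest knockout heart was well above the highest wild-type heart, and the knockout hearts were also spread more widely, with a mean of 117 ± 25.5, against 49.0 ± 5.04 in wild type (SD, n = 3 each). The log2 difference was 1.01 (SE 0.13), and the deposited means stood in a ratio of 2.39. The second probe set had 98.7, 102 and 90.6 in the knockout hearts and 75.7, 54.5 and 50.7 in the wild-type hearts. Here wild-type heart 1 stood apart from the other wild-type hearts, and the log2 difference was smaller, 0.56 (SE 0.12). Both probe sets were past the threshold, the second only narrowly: it was no longer past it in 13 of the 20 other settings in which it was tested. The first remained past it in all 20 of its own. Within a genotype the first probe set varied with a pooled SD of 0.21 on the log2 scale, more than 96.2% of the 500 probe sets nearest to it in level.

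Met encodes the receptor tyrosine kinase for hepatocyte growth factor and is the gene that follows Cav1. Its brighter probe set had an intensity of 69.2, 71.2 and 66.7 in the knockout hearts, against 29.3, 33.4 and 30.0 in the wild-type hearts. Both groups were tight and far apart, with means of 69.0 ± 2.25 in knockout and 30.9 ± 2.22 in wild type (SD, n = 3 each). The log2 difference was 0.87 (SE 0.075), and the deposited means stood in a ratio of 2.23. The wild-type level of this probe set lay under the level filter, so that the probe set entered the test through the knockout hearts. The dimmer probe set of Met had 18.9, 21.0 and 19.9 in the knockout hearts and 22.1, 17.5 and 14.5 in the wild-type hearts. These ranges overlap, the probe set was below the level filter, and its log2 difference was 0.12, so the 2 probe sets of Met disagree in size. Of 15 genes chosen as transcripts of other organs, the 23 probe sets had mean intensities between 6.30 and 105 with a median of 18.0, and the dimmer Met probe set lies near that median. The brighter Met probe set lies within the same range in both groups. So does the second Tes probe set, with means of 97.1 in knockout and 60.3 in wild type. The first Tes probe set lies within it in wild type (49.0) and above it in knockout (117). With 1 knockout heart left out, the brighter probe set fell below the level filter unless the filter was taken from all 6 arrays. It was not tested with the upper 25% of probe sets either. It remained past the threshold in all 17 settings in which it was tested. Because being tested depended on its knockout level, nothing is read from that count.

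Mdfic encodes an I-mfa domain protein that regulates transcription factors and, in mouse cells, also binds the mechanosensitive channel Piezo1. Its single probe set had an intensity of 447, 415 and 423 in the knockout hearts, against 311, 339 and 336 in the wild-type hearts. The groups did not overlap and differed by less than those of Tes and Met, with means of 428 ± 16.2 in knockout and 329 ± 15.4 in wild type (SD, n = 3 each). The log2 difference was 0.30 (SE 0.052), a ratio of 1.30 between the deposited means. It was not past the threshold without wild-type heart 3 (0.30) or without knockout heart 1 (0.27), knockout heart 2 (0.33) or knockout heart 3 (0.30). In those settings the size of the difference changed little, while fewer arrays were fitted.

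The other members of the actin group did not pass. Capza2 encodes an alpha subunit of the capping protein that closes the barbed ends of actin filaments and, in muscle, anchors them at the Z disc. Its brighter probe set had 2713, 2567 and 2667 in the knockout hearts and 2460, 2547 and 2494 in the wild-type hearts, a log2 difference of 0.05 (SE 0.037). The dimmer probe set had 1325, 1243 and 1281 in the knockout hearts and 1047, 1214 and 1164 in the wild-type hearts, a log2 difference of 0.13 (SE 0.046). In deposited intensity every knockout heart was above every wild-type heart at both, by a small margin, but after normalisation the groups overlapped at the brighter one. Cttnbp2 encodes a protein that binds cortactin and is known from dendritic spines of neurons. Its dimmer probe set had 10.2, 10.7 and 10.8 in the knockout hearts and 8.29, 9.11 and 8.94 in the wild-type hearts, without overlap but at the low end of the array. Its brighter probe set had 36.0, 37.6 and 42.5 in the knockout hearts and 42.7, 34.8 and 39.0 in the wild-type hearts, which overlap. The log2 differences were 0.12 for the dimmer and 0.02 for the brighter, both below the level filter.

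Tfec and Foxp2, the other regulators of transcription, showed no probe set past the threshold. Tfec is a member of the MiT family of helix-loop-helix factors and is known from macrophages. Its probe set had 10.6, 10.6 and 9.64 in the knockout hearts and 10.2, 11.1 and 10.6 in the wild-type hearts, with a log2 difference of 0.0032. It lay low on the array and below the level filter. Foxp2 is a forkhead repressor known for its part in vocal learning and is covered by 6 probe sets. The only tested probe set had 177, 140 and 161 in the knockout hearts and 143, 151 and 134 in the wild-type hearts, with overlap and a log2 difference of 0.08 (SE 0.088). Of the 5 below the level filter, 1 had the largest log2 difference of these genes' probe sets that did not pass, 0.21, with 45.7, 40.4 and 52.0 in the knockout hearts against 35.9, 40.3 and 39.2 in the wild-type hearts. Its lowest knockout heart and highest wild-type heart were nearly equal. Another had the opposite sign, -0.08, with 30.8, 25.5 and 29.3 in the knockout hearts and 31.7, 30.3 and 34.6 in the wild-type hearts. The remaining 3 had log2 differences of 0.02, 0.09 and 0.13. The probe sets of Foxp2 thus differed in sign, and a sign cannot be given for the gene.

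Wnt2, a secreted Wnt ligand that mouse lung development needs, had 24.2, 24.5 and 23.1 in the knockout hearts and 25.3, 18.1 and 20.1 in the wild-type hearts. The groups overlap because of wild-type heart 1, and the log2 difference was 0.15 at a level below the filter. St7 had 138, 157 and 133 in the knockout hearts and 117, 135 and 132 in the wild-type hearts, with overlap and a log2 difference of 0.09 (SE 0.071). Ppp1r3a, which holds protein phosphatase 1 at glycogen in striated muscle, had 64.9, 67.9 and 67.6 in the knockout hearts and 67.9, 67.8 and 67.9 in the wild-type hearts. Its log2 difference was -0.03 (SE 0.062). All these intensities lie within the range of mean intensities of the genes of other organs, 6.30 to 105. The 6 hearts gave 4 distinct intensities at that probe set, since knockout heart 2, wild-type heart 1 and wild-type heart 3 carry the same value, and its pooled SD was larger than that of 0.8% of the 500 probe sets nearest in level. Of the 15 probe sets that did not pass or were not tested, 13 had a positive log2 difference, with a median of 0.09 and a range of -0.08 to 0.21, beside a median of -0.01 over all tested probe sets. These signs depend on the scaling: 10 of the 15 were positive with intensities as deposited and 14 with arrays centred on their medians, where the median over all tested probe sets was 0.03 and 0.05. Leaving out 1 heart gave 11 to 13.

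**Figure D2:**
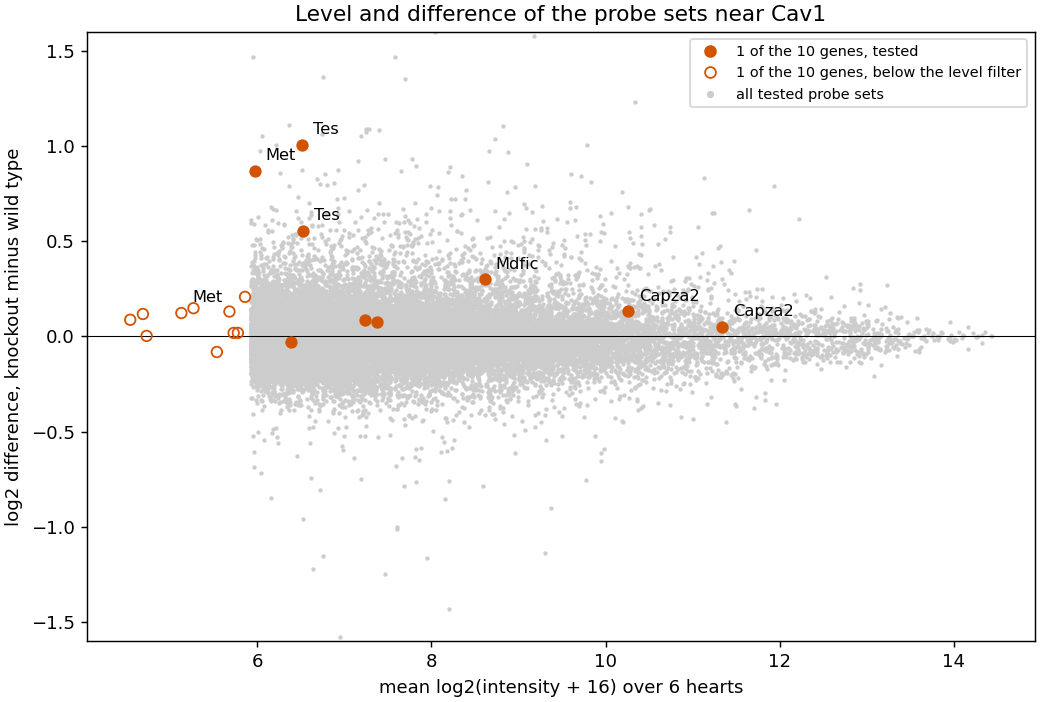
Mean of log2(intensity + 16) over the 6 hearts against the log2 difference, knockout minus wild type, for all tested probe sets (grey) and the 19 probe sets near Cav1 (orange, open where below the level filter). Tes at 1.01 and 0.56 and Met at 0.87 stand at the upper edge of the cloud at their level and Mdfic at 0.30 lies above most probe sets of its level, while 9 tested probe sets with differences beyond 1.6 in size lie outside the axis.

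Along the chromosome the genes past the threshold ran from Mdfic to Met, Cav1 as lower, and only Tfec, which was not tested, lay between them. Nothing is read from this run, because the genes were listed with their differences known. Reading toward Cav1, Mdfic (0.30) was followed by Tfec (0.0032, below the level filter), Tes (1.01 and 0.56) and Cav2 (0.49 and 0.06), and past Cav1 by Met (0.87 and 0.12), Capza2 (0.05 and 0.13) and St7 (0.09). The second value of Cav2 belongs to a weaker probe set that did not pass (limma adjusted p = 0.666). Between Wnt2 and Cttnbp2 lie Asz1 and Cftr, with 2 probe sets each, all below the level filter and with log2 differences from -0.09 to 0.04. The 47 other measured genes within 10 Mb of Cav1 leave out the 10 genes, Cav1 and Cav2. Of these 47, 27 were tested, and at 49 tested probe sets none passed limma's adjusted p, against 3.17% over the array. Tes, Met, Mdfic and Cav2, which had probe sets past the threshold, were thus left out first, and nothing is read from this count. With no adjustment, 10 of these 49 had a limma p under 0.05, while 20% of all tested probe sets did. The median log2 difference of the 27 genes, each at its brightest tested probe set, was 0.0064 with a range of -0.15 to 0.28, beside a median of -0.01 over all 11486 tested genes. The smallest limma adjusted p among these 27 was 0.0905, for Lmod2, a leiomodin of the sarcomere (log2 difference -0.15). Single other settings called 1 probe set each: Ndufa5 (-0.14) with the upper 25% of probe sets, Bmt2 (0.45) without wild-type heart 2 and Lmod2 (-0.18) without knockout heart 3.

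**Figure D3:**
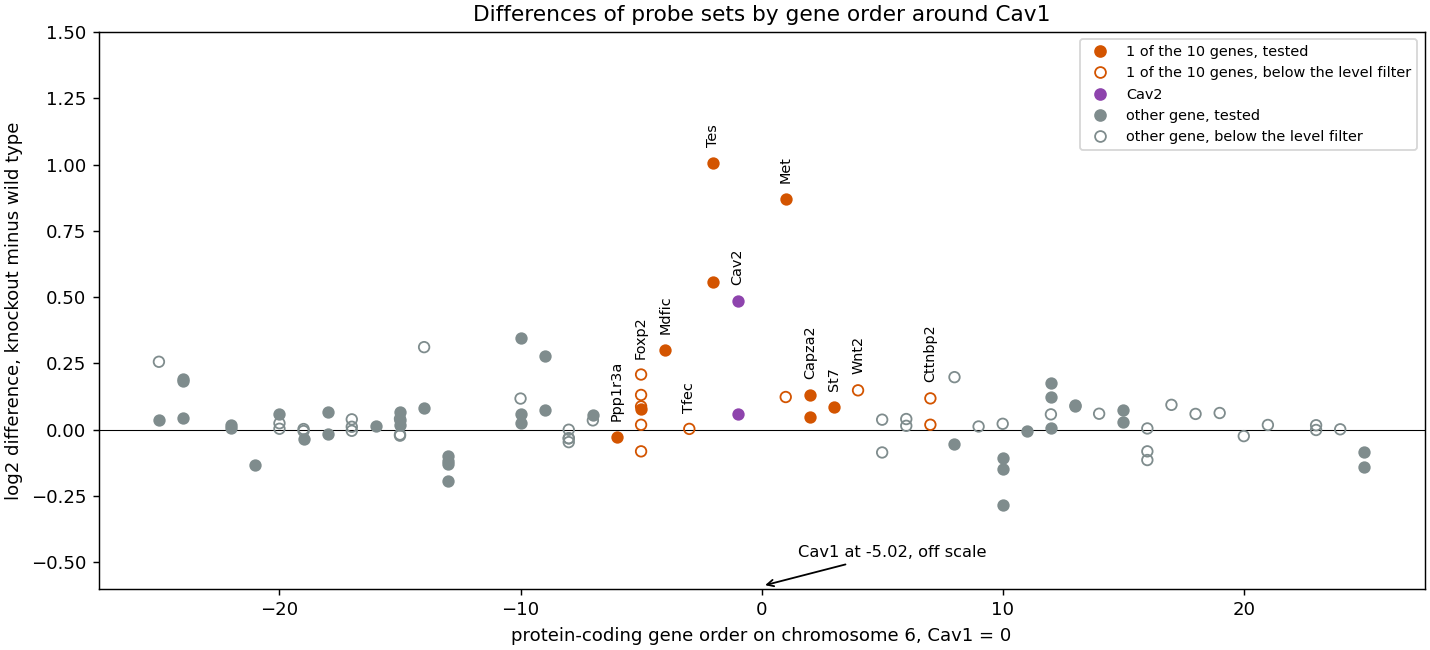
Log2 difference, knockout minus wild type, of each probe set against the order of protein-coding genes on chromosome 6, Cav1 at 0, for up to 25 genes on each side; open points are below the level filter. The probe sets of Tes, Met and Cav2 that passed stand above the rest, Mdfic (0.30) lies under a probe set of Tmem168 (0.35) that did not pass and 1 of Thsd7a (0.31) that was not tested, and Cav1 (-5.02) is off the scale.

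Partners and relatives of these genes mostly did not pass, as was true of all tested genes. The chromosome they lie on was not taken into account. Of 98 listed genes 83 were tested, each at its brightest tested probe set, and 3 rose, 1 fell and 79 did not pass. Over the 11486 tested genes 4.02% passed, 2.97% as higher and 1.05% as lower. The median log2 difference over the lists was 0.06, beside -0.01 over all tested genes. In the pathway of Met, 1 of 13 tested genes rose. It was Cd44, a hyaluronan receptor that acts as a co-receptor for Met, with 240, 253 and 230 in the knockout hearts against 150, 167 and 138 in the wild-type hearts (log2 difference 0.55, SE 0.071, limma adjusted p = 0.00538). A dimmer probe set of Cd44 passed too (0.52, limma adjusted p = 0.0138), and another did not (0.30, limma adjusted p = 0.146). The 13 had a median of -0.02. None of 15 tested LIM, zyxin and Ena/VASP partners of Tes passed, with a median of 0.09 and a range of -0.13 to 0.97. The highest, the LIM protein gene Limd1, had 680, 704 and 587 in the knockout hearts against 181, 423 and 400 in the wild-type hearts (limma adjusted p = 0.0623), and wild-type heart 1 stood apart. Zyx, the zyxin to which testin binds, had a log2 difference of 0.08 (limma adjusted p = 0.423).

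Of 9 tested capping and barbed-end genes, 1 rose. It was Capg, a gelsolin-family protein that caps actin filaments, with 320, 316 and 254 in the knockout hearts against 135, 147 and 136 in the wild-type hearts (log2 difference 0.93, SE 0.083, limma adjusted p = 0.00108). The subunits that pair with Capza2 or replace it, Capzb and Capza1, had log2 differences of 0.04 and 0.19 and did not pass (limma adjusted p = 0.503 and 0.0835). Among 7 tested partners and relatives of Mdfic, Piezo1, the mechanosensitive channel, rose, with 377, 388 and 348 in the knockout hearts against 257, 269 and 247 in the wild-type hearts (log2 difference 0.43, SE 0.061, limma adjusted p = 0.00819). It passed in 17 of 21 other settings, while Capg and Cd44 passed in all 21. Mdfi, the paralogue of Mdfic, had 0.01 (limma adjusted p = 0.929).

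In the glycogen list, 1 of 12 tested genes fell at its brightest probe set, Ppp1cb, a catalytic subunit of protein phosphatase 1. It had 2610, 2602 and 2644 in the knockout hearts against 2867, 3153 and 2841 in the wild-type hearts (log2 difference -0.20, SE 0.040, limma adjusted p = 0.0336). Another probe set of Ppp1cb stood at 1.09, past the threshold, and the fall passed in 7 of 21 other settings, so no direction is given for that gene. None of the 3 MiT genes Mitf, Tfe3 and Tfeb passed (log2 differences of -0.03, -0.0064 and -0.17). None of 2 forkhead P genes passed, Foxp1 standing at 0.18 (limma adjusted p = 0.116) and Foxp4 at 0.02. None of 16 Wnt pathway genes passed, with a median of 0.08 and a range of -0.16 to 0.66. St7l, the paralogue of St7, had 0.08 and did not pass. None of 5 cortactin-binding genes passed at the brightest probe set, with a median of 0.20, though a weaker probe set of Cttnbp2nl was past the threshold (0.38, limma adjusted p = 0.0411).

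**Figure D4:**
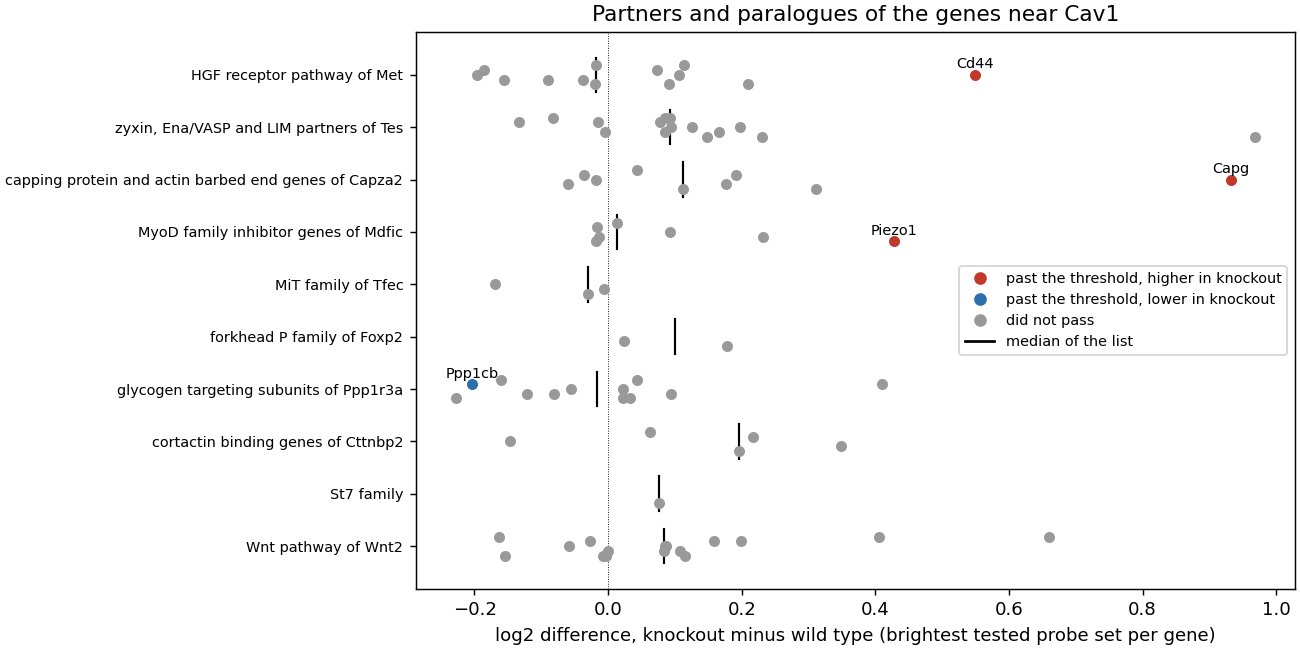
Log2 difference, knockout minus wild type, of each partner or paralogue at its brightest tested probe set, by list, with a line at the median of the list. Capg (0.93), Cd44 (0.55) and Piezo1 (0.43) passed as higher and Ppp1cb (-0.20) as lower; Limd1, the grey point at 0.97, did not pass.

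Some markers of several cell types were higher in the knockout hearts, while others of the same lists did not pass. Over all 11486 tested genes 2.97% passed as higher and 1.05% as lower. The part of these cell types in the differences of Tes, Met, Mdfic and the partner genes was not tested. Of 7 endothelial markers 4 rose, and the summed intensity of the list was 3997 to 4764 in the knockout hearts and 3080 to 3266 in the wild-type hearts. At Kdr the groups overlapped (log2 difference -0.04). Of 7 macrophage markers 4 rose, with sums of 3293 to 3366 in the knockout hearts and 2389 to 2811 in the wild-type hearts. Of 7 fibroblast markers 2 rose, Col1a1 and Col3a1, with sums of 13622 to 16512 in the knockout hearts and 11374 to 12494 in the wild-type hearts. At Pdgfra, Dcn and Tcf21 the groups overlapped. Of 7 mesothelial and epicardial markers 1 rose, Lrrn4, with sums of 1032 to 1213 in the knockout hearts and 589 to 920 in the wild-type hearts. At Msln, Upk3b, Wt1, Upk1b and Krt8 the groups overlapped. None of 7 cardiomyocyte markers passed, with sums of 115277 to 117228 in the knockout hearts and 116767 to 119009 in the wild-type hearts, and none of 5 smooth muscle markers did, with 8881 to 8959 in the knockout hearts and 8556 to 9052 in the wild-type hearts. All 7 cardiomyocyte markers were above the level filter, with mean intensities from 5761 (Ryr2) to 21989 (Myl2), in samples labelled as heart. No marker was at 0, the lowest being Lep at 10.7. Of 4 measured fat markers Fabp4, which capillary endothelium also makes, rose (log2 difference 0.15). Adipoq, which encodes the fat cell hormone adiponectin, had 65.2, 53.1 and 265 in the knockout hearts against 207, 386 and 814 in the wild-type hearts and did not pass (log2 difference -1.89, limma adjusted p = 0.109). Lep and Cidec were below the level filter, and at Cidec every knockout heart lay below every wild-type heart (-0.56). Of 3 measured liver markers only Ttr was tested, and it did not pass. Apoa1 and albumin, Alb, were below the level filter, and Alb stood at a mean of 14.6, near the signal of genes of other organs.

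The profiles most like those of Tes, Met and Mdfic were found over the 6 hearts, each profile centred on its own mean, as the smallest root mean square difference on the log2 scale among 19741 tested probe sets. For the second probe set of Tes, the brighter by mean log2 level, they were Col4a1 (0.07), Rhoj (0.09) and Col18a1 (0.09). For Met they were 2 probe sets of Vim (0.08 and 0.10) and Itih5 (0.10). For Mdfic they were Sparc (0.03), Tor4a (0.03) and Mtpn (0.03). Of these, Mtpn lies on chromosome 6 as well, outside the 10 Mb around Cav1. Since the genotype difference makes up most of each profile, genes with a like difference come first by construction.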

How the data were processed

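Heart RNA was measured on Affymetrix mouse arrays, 1 array for each of 3 Cav1 knockout and 3 wild-type samples. The deposited values are linear probe set intensities made by the authors, with GCOS 1.4 as the tool per the submitters' processing notes. No source at hand states the probe summary or scaling, so both are unknown. Trimmed means differed by up to 8.42% between arrays, so intensities were quantile normalised after 64 control probe sets were left out, and log2(intensity + 16) was taken. The upper 50% by mean over the 6 arrays (22519 of 45037, lowest mean 5.92) was tested with limma 3.58.1 in R 4.3.3, by lmFit and eBayes with a trend and Benjamini-Hochberg adjustment, called under 0.05. The procedure was tested on simulated data.

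Genes come from the platform annotation of 2016, in which 34945 probe sets have 1 symbol, 932 several and 9160 none. Gene order, windows and promoters come from RefSeq tables of GRCm38.p6, in which all 10 genes were matched. The array files name no build, so only order and distance were used from the gene table. The 10 genes, the partner and marker lists and the rules were chosen with earlier results of these data known. Named were all probe sets of the 10 genes, Cav1 and Cav2, genes lying between them, neighbours within 10 Mb past the threshold, the 3 closest profiles for each gene with a probe set past it, and partner genes past it. Partner genes that did not pass, and Lmod2, Ndufa5 and Bmt2, were named after their values were seen. Alternatives were other scalings, pseudocounts, filters, array weights, no trend, other windows and leaving out each array.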

Additional observations from a re-analysis of the deposited data

How the results depend on the processing

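No paired analysis was possible because the knockout titles share no replicate numbers with the wild-type titles. With 3 arrays a group the precision is limited by their number. Over the array, 714 probe sets passed, and array weights gave 1171 (394 lower) and a fit with no trend 411 (338 higher, 73 lower). Lower calls were 58 as deposited, 41 centred on the medians and 103 with no filter, beside 183. Leaving out 1 array gave 189 to 749 calls, of them 154 to 552 higher and 34 to 197 lower, with the fewest without knockout heart 1 (189), knockout heart 2 (227) and wild-type heart 3 (299), and 470 without wild-type heart 1. Other neighbours within 10 Mb had 0 to 1 calls with 1 array left out, 1 with the upper 25% of probe sets, and 12 within 20 Mb. Of the probe sets of the 10 genes, 1 to 4 passed with 1 array left out, against 4: 2 without wild-type heart 3, and 1 without each of the knockout hearts in turn, or 2 where the filter was taken from all 6 arrays, a setting chosen after seeing the data. With the upper 25%, 1 passed of the 3 tested, and no Tes or Met probe set was tested. Partner genes past the threshold numbered 4, against 7 with the upper 25%, 11 with array weights and 2 to 6 with 1 array left out, the fewest without knockout heart 1 or knockout heart 2. The cause was not tested. Of 390 values of the 10 genes over these settings, 360 kept their call or stayed within the replicate SD, 21 lost the call (8 for Mdfic and 13 for the second Tes probe set), 9 moved by more than the replicate SD, and none reversed a call.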

Other observations

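Farther from Cav1 on chromosome 6, between 10 and 20 Mb away, 12 of 115 tested probe sets passed, for 7 genes, or 10.4%, against 3.17% over the array. These were Col1a2, Arf5, Rbm28, Podxl, Exoc4, Mtpn and Ptn, named after their values were seen. At the brightest tested probe set of each gene 4 were higher and 2 lower. Ptn, the secreted growth factor pleiotrophin, had an intensity of 66.8, 74.5 and 70.3 in the knockout hearts, against 42.1, 49.1 and 45.6 in the wild-type hearts (log2 difference 0.50, limma adjusted p = 0.0125). The groups did not overlap. Arf5, a small GTPase of vesicle traffic, was lower, with 386, 345 and 337 in the knockout hearts against 405, 429 and 461 in the wild-type hearts (log2 difference -0.34, limma adjusted p = 0.0287). Podxl stood at 0.33 (limma adjusted p = 0.0325), Mtpn at 0.25 (limma adjusted p = 0.0342) and Exoc4 at 0.24 (limma adjusted p = 0.0478). Of the 2 tested probe sets of Col1a2 only the weaker passed (0.42, limma adjusted p = 0.00624). The probe sets of Rbm28, an RNA-binding protein, passed in opposite directions, 1 at 0.49 (limma adjusted p = 0.00941) and 1 at -0.61 (limma adjusted p = 0.0415). No direction is given for Rbm28.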
